A study of Homo sapiens with 6 samples.

Results

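Aminoacyl-tRNA synthetases join each amino acid to its tRNA, and human cells hold separate sets for protein synthesis in the cytosol and in mitochondria. All enzymes of both sets are encoded in the nucleus. Amino acid shortage and other stresses that lead to phosphorylation of eIF2 raise the transcription factor ATF4, and many cytosolic synthetase genes, with the tRNA exportin gene XPOT, are known as its targets. The mitochondrial synthetases belong instead to the machinery that translates the few proteins encoded by mitochondrial DNA. The genes described here are 36 of the 22411 genes tested: 19 cytosolic synthetases, 16 mitochondrial ones, whose symbols end in 2, and XPOT. The rule that selects them uses gene names and no measured value, although it was set with earlier results of these data known, and a gene was represented by its brightest probe set among those annotated to that gene alone. Every one of the 36 was measured.

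The cells were HCT-shSLBP, derived from the human colorectal carcinoma line HCT116. The line is named for a hairpin RNA directed at SLBP, which binds the stem-loop of histone mRNAs. One group of 3 cultures was untreated and the other group of 3 cultures received doxycycline at 2 µg/ml, with the hairpin line common to both. Doxycycline is the usual inducer of such hairpins and also an antibiotic known to inhibit mitochondrial ribosomes. The comparison holds no doxycycline-treated cells lacking the hairpin, and the 2 influences cannot be told apart. Whether the line is 1 clone, and how long the drug was given, are not stated in the sources used here.

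Each culture was measured on 1 Affymetrix array, and values are log2 signals, with changes given as doxycycline over untreated. "Rose" and "fell" refer to an adjusted p under 0.05 in limma over all 22411 genes, by which 2.93% of all genes rose and 3.27% fell. SLBP fell from 8.07 ± 0.029 to 7.30 ± 0.098 (SD, n = 3 per group), for which an exact two-sided permutation test returned p = 0.1, its minimum with 3 arrays per group. Among 14 epithelial colon markers, the mean log2 signal per array lay between 7.65 and 7.73, with KRT8, KRT18 and KRT19 among the brightest and CEACAM5 and CEACAM6 under 4.52, the level that holds 95% of olfactory receptor genes. CLDN4 (0.21) and CLDN7 (0.19) rose among these 14. Of 11 markers of fibroblasts, endothelium and blood, 4 lay above that level and none passed the test (limma, 1 at an unadjusted p under 0.05), with a mean per array of 3.74 to 3.79. All 36 synthetase and export genes lay above it, with mean signals of 5.77 to 10.28.

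All called members were cytosolic. The cytosolic genes were also the brighter set. Their mean log2 signal per array was 8.85 to 8.93, against 6.96 to 7.02 for the mitochondrial genes. The bearing of signal level on the size of the changes was not tested. AARS1, SARS1 and EPRS1 rose, HARS1 fell, and the other 15 cytosolic genes did not pass the test. The changes of the 19 ran from -0.18 to 0.34 with a median of 0.06, beside a median of -0.02 over all genes tested. Of the 19, 12 had a higher mean in treated cultures, as did 41.8% of all genes, and in 10 every treated array lay above every untreated array, an arrangement found in 12.5% of all genes. In 3 every treated array lay below, against 16.7% of all genes. No mitochondrial synthetase rose or fell in limma's test. At an unadjusted p under 0.05 there were 3 higher and 4 lower mitochondrial genes of 16, and 9 higher and 2 lower cytosolic genes of 19, where 9.85% of all genes were higher and 12.7% lower by the same measure.

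**Figure D1:**
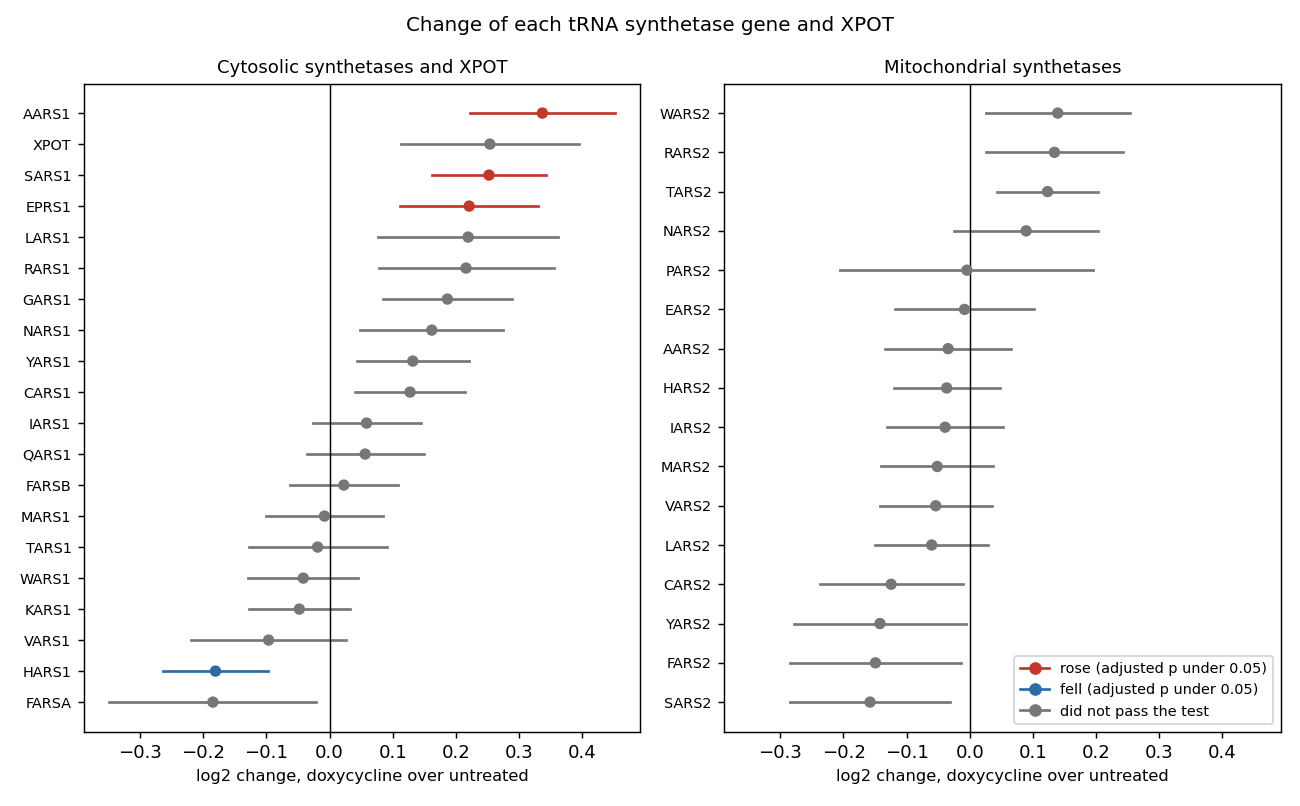
Log2 change of each gene, doxycycline over untreated, with limma's 95% confidence interval (3 arrays per group). The left panel holds the cytosolic synthetases and XPOT, where AARS1, SARS1 and EPRS1 lie highest among the called genes and HARS1 is the called fall. The right panel holds the mitochondrial synthetases, whose changes lie between -0.16 and 0.14.

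AARS1 charges tRNA with alanine and also edits mischarged products. Its log2 signal was 10.06, 10.17 and 10.11 in untreated replicates 1 to 3 and 10.52, 10.39 and 10.44 in treated replicates 1 to 3. The groups were separated by more than the range of either, and AARS1 had the largest change of the 36 genes, 0.34 (SE 0.049, limma adjusted p = 0.0143), or 126% of the untreated signal. Its promoter is shown because it is the gene that moved furthest and because its upstream sequence holds the core of the amino acid response element, the composite site at which ATF4 pairs with a C/EBP factor. The 250 bases before the RefSeq start at chr16:70289507-70289756 (GRCh38.p14, minus strand) read as follows, with the core, here on the strand opposite to the gene, in capitals.
AARS1: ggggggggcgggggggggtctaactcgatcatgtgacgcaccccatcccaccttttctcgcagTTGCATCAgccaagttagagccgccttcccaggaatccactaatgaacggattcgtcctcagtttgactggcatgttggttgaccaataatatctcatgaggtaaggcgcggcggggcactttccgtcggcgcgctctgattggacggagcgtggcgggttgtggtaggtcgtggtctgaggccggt

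SARS1, the cytosolic serine enzyme, measured 8.94, 8.89 and 8.96 in untreated and 9.20, 9.15 and 9.20 in treated cultures. All treated arrays were higher, by 0.25 on average (SE 0.038, limma adjusted p = 0.0165). EPRS1, in which the glutamate and proline enzymes are fused into a single protein, measured 9.15, 9.22 and 9.19 against 9.35, 9.48 and 9.39. It was likewise higher on every treated array, with a change of 0.22 (SE 0.046, limma adjusted p = 0.0396). These calls depended on which arrays were in the fit. AARS1 lost its call without untreated replicate 1 or 3 or treated replicate 3, with adjusted p of 0.0326 to 0.0655 over the fits that left out an array. SARS1 lost it without untreated replicate 1, 2 or 3 or treated replicate 3 (adjusted p = 0.0382 to 0.0752), and EPRS1 kept it, of the 6 such fits, only in the one without treated replicate 1 (adjusted p = 0.047 to 0.135). EPRS1 also lost its call with each array centred on its median (limma adjusted p = 0.0538) and with quantile normalization repeated (limma adjusted p = 0.0601).

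HARS1, the cytosolic histidine enzyme, went the other way. Its signal was 7.80, 7.77 and 7.75 in untreated and 7.61, 7.58 and 7.58 in treated cultures. The groups did not overlap, and treated cultures held 88.2% of the untreated signal, a change of -0.18 (SE 0.035, limma adjusted p = 0.0322). The call was lost whichever array was left out, with adjusted p of 0.0517 to 0.121 and changes of -0.19 to -0.17.

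**Figure D2:**
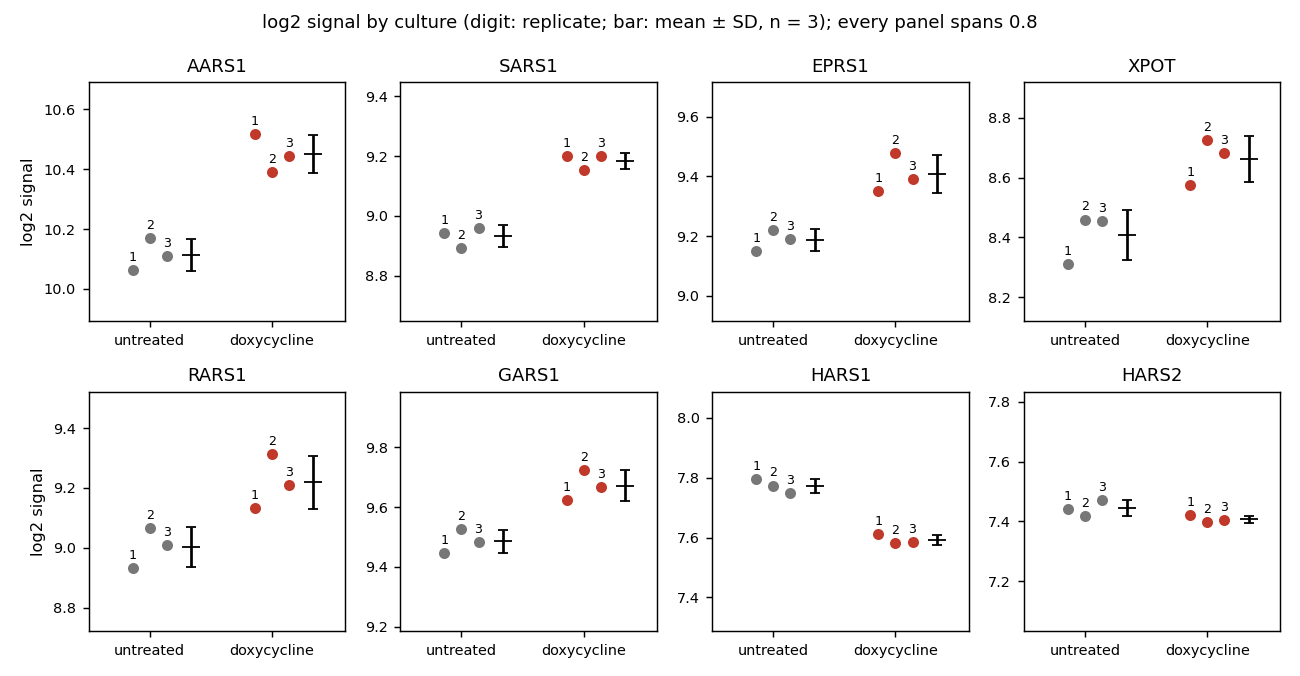
Log2 signal (vertical axis) of 8 genes in each untreated and doxycycline culture; the digit is the replicate and the bar the mean ± SD of 3. In AARS1, SARS1, EPRS1, XPOT, RARS1 and GARS1 all treated points lie above all untreated ones, in HARS1 all lie below, and in HARS2 the groups overlap.

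A further 6 cytosolic genes, and XPOT, were higher on every treated array than on any untreated one, with limma adjusted p of 0.0524 to 0.0986. XPOT, which carries mature tRNAs out of the nucleus, measured 8.31, 8.46 and 8.45 in untreated and 8.58, 8.73 and 8.68 in treated cultures. Its change, 0.25 (SE 0.060), was as large as that of SARS1, with a wider spread between replicates (limma adjusted p = 0.0539). GARS1, the glycine enzyme of both compartments, measured 9.45, 9.53 and 9.48 against 9.62, 9.73 and 9.67, a change of 0.19 (SE 0.043, limma adjusted p = 0.0524). The other genes of this kind were LARS1 (0.22), a leucine enzyme that also reports leucine to mTORC1, RARS1 (0.22), NARS1 (0.16), YARS1 (0.13) and CARS1 (0.13), for arginine, asparagine, tyrosine and cysteine, with limma adjusted p of 0.0786 to 0.0986. All 8 members with an adjusted p between 0.05 and 0.1 were higher in treated cultures. How many of all genes lay in this band, and in which direction, was not counted. The eighth such member was the mitochondrial gene TARS2. IARS1 was also higher on every treated array, with a limma adjusted p of 0.397.

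Several of the genes with an adjusted p between 0.05 and 0.1 passed under other settings, which also called more genes over the whole table. With trend and robust settings of eBayes, GARS1, XPOT, RARS1, CARS1 and YARS1 passed, and 9 of the 36 genes rose and 1 fell, beside 4.23% of all genes called higher and 4.89% lower. With genes under the median level left out of the table, which keeps all 36 among 11206 genes, LARS1 and NARS1 passed as well, and 11 rose and 1 fell, beside 10.3% called higher and 12.6% lower in that smaller table. Array weights gave 11 rises and 2 falls, beside 6.74% and 7.65% of all genes.

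In the remaining cytosolic genes the sizes were small or the spread wide. FARSA, the alpha subunit of the phenylalanine enzyme, measured 9.80, 9.68 and 9.66 in untreated and 9.66, 9.42 and 9.51 in treated cultures. All treated values were below all untreated ones, with almost no gap between the nearest, and the change of -0.18 had an SE of 0.069 (limma adjusted p = 0.173). Its partner FARSB, the beta subunit, changed by 0.02 with overlapping groups (95% interval -0.06 to 0.11). VARS1, the valine enzyme, is represented by 7 probe sets from the reference and alternative assemblies of its region, which differed in change only between -0.12 and -0.10 and share their sequence in large part, and the brightest gave an adjusted p of 0.335. IARS1 (0.06), QARS1 (0.06), MARS1 (-0.01), TARS1 (-0.02), WARS1 (-0.04) and KARS1 (-0.05) had limma adjusted p of 0.397 to 0.933, with 95% intervals that lay between -0.13 and 0.15. For MARS1 and TARS1, the methionine and threonine enzymes, the sign of the change turned with repeated quantile normalization (0.02 for MARS1 and 0.0051 for TARS1).

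Enzymes of the multisynthetase complex, a large assembly that holds several cytosolic synthetases on scaffold proteins, differed among themselves. Of 7 members measured here, EPRS1 rose, and the changes ran from -0.05 in KARS1 to 0.22 in EPRS1, with a median of 0.06. The 12 cytosolic genes outside the complex had a median of 0.08, with 2 rises and 1 fall. Synthetases also fall into class I and class II by the fold of their catalytic domain, and these groupings were made after the values were known. The 9 class I genes had a median of 0.06 and no call (limma, 4 higher and none lower at an unadjusted p under 0.05), and the 9 class II genes, which include AARS1, SARS1 and HARS1, had a median of 0.02 and the widest range, from -0.18 to 0.34. EPRS1 spans both classes and is in neither count.

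Of the 36 members, 14 had every treated array above every untreated one, beside 12.5% of all genes, and 7 had every one below, beside 16.7%. Within these members the same arrays often held the extreme values. Among the 14 members with every treated array above every untreated one, treated replicate 2 held the highest value in 9, treated replicate 3 in 4 and treated replicate 1 in 1, AARS1, while untreated replicate 1 held the lowest untreated value in 10. Among the 7 with every treated array below, untreated replicate 1 was the highest in 6 and treated replicate 2 the lowest in 5. How often these 2 arrays hold the extremes among all genes was not counted, so the pattern may not be particular to the members. Their part in the result was not tested beyond leaving them out. Without untreated replicate 1 the median change of the cytosolic genes was 0.08, and without treated replicate 2 it was 0.07.

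The mitochondrial set was centred slightly below 0. Its 16 changes ran from -0.16 to 0.14 with a median of -0.04, and 12 had a lower mean in treated cultures, where 58.2% of all genes did. In 3 genes all treated arrays were higher, beside 12.5% of all genes, and in 4 all were lower, beside 16.7% of all genes. The mean deviation from the untreated mean was -0.03, -0.03 and -0.01 on treated replicates 1 to 3 for the mitochondrial genes and 0.07, 0.08 and 0.07 for the cytosolic genes. On untreated arrays it stayed between -0.02 and 0.03 for the mitochondrial set and between -0.0067 and 0.0048 for the cytosolic set. These means describe the arrays and carry no test.

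The 4 mitochondrial genes that were lower on every treated array were SARS2, FARS2, YARS2 and CARS2, for serine, phenylalanine, tyrosine and cysteine. SARS2 measured 7.85, 7.67 and 7.81 in untreated and 7.66, 7.60 and 7.60 in treated cultures, a change of -0.16 (SE 0.053, limma adjusted p = 0.137) with untreated replicate 2 close to the treated values. FARS2 (-0.15), YARS2 (-0.14) and CARS2 (-0.12) had limma adjusted p of 0.18 to 0.202. WARS2 (0.14), RARS2 (0.13) and TARS2 (0.12), for tryptophan, arginine and threonine, were higher on every treated array. TARS2 had the tightest groups of them, 7.35, 7.34 and 7.35 against 7.45, 7.48 and 7.48 (SE 0.034, limma adjusted p = 0.0828). It passed with array weights, with trend and robust settings and without dim genes, WARS2 passed with array weights, and SARS2 was called lower with array weights.

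The other 9 mitochondrial genes overlapped between groups. They were AARS2, EARS2, HARS2, IARS2, LARS2, MARS2, NARS2, PARS2 and VARS2, with changes from -0.06 in LARS2 to 0.09 in NARS2 and limma adjusted p of 0.336 to 0.983. EARS2 charges mitochondrial tRNA with glutamate, including the tRNA for glutamine, which is then corrected by an amidotransferase. Its change of -0.01 had a 95% interval of -0.12 to 0.10. PARS2, the proline enzyme, was the noisiest of the 36, at 7.64, 7.38 and 7.40 against 7.37, 7.46 and 7.58, so that changes between -0.20 and 0.20 lie within its interval.

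Cytosolic and mitochondrial enzymes for the same amino acid were then set against each other on the same arrays. For each of 17 pairs, in which EPRS1 and FARS2 each appear in more than 1, the change of the mitochondrial gene was subtracted from that of the cytosolic gene. The difference was positive in 12 and negative in 5, with a median of 0.10. It was widest for serine, 0.41 (SE 0.040), with SARS1 up by 0.25 and SARS2 at -0.16. Relative to the untreated mean, this difference stood at 0.39, 0.40 and 0.45 on the treated arrays and at -0.06, 0.06 and -0.0037 on the untreated ones, so the groups were far apart. For alanine it was 0.37 (SE 0.018), at 0.38, 0.35 and 0.38 on treated arrays, with AARS2 at -0.03. The SE of a pair difference comes from the arrays of that pair alone. Limma's SE of a single gene also draws on the variance of all other genes, so the 2 kinds of SE cannot be compared. Leucine (0.28), tyrosine (0.27), cysteine (0.25), glutamate (0.23), isoleucine (0.10) and arginine (0.08) were the other pairs in which all treated arrays lay above all untreated ones.

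In 3 pairs all treated arrays lay below: tryptophan (-0.18), histidine (-0.14) and threonine (-0.14). For tryptophan and threonine the mitochondrial gene was the higher one, at 0.14 for WARS2 and 0.12 for TARS2, while WARS1 and TARS1 stood at -0.04 and -0.02. For histidine the cytosolic gene fell. The exact two-sided permutation test gave p = 0.1, its smallest possible value, for these 3 and the 8 pairs above, and an adjusted p of 0.155 over the 17 pairs, so no pair passes at this size of design. In the other 6 pairs the groups overlapped. No share of separated groups over other pairs of genes was counted, and the pairs use the same values as the single genes above.

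**Figure D3:**
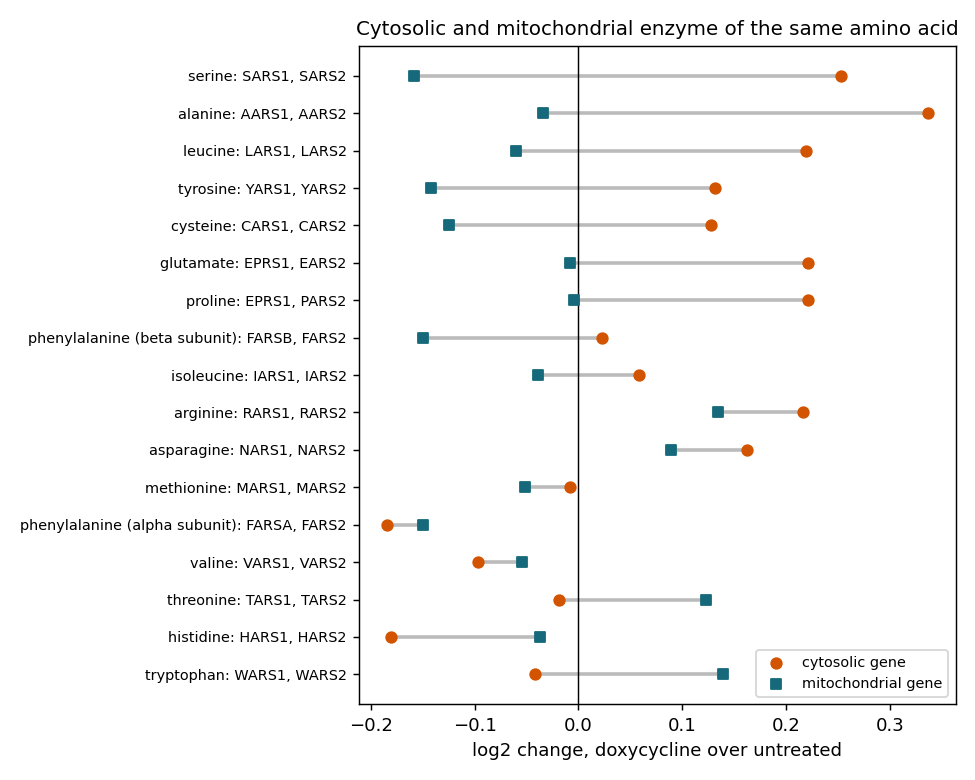
Log2 change of the cytosolic gene (circle) and the mitochondrial gene (square) for each amino acid, ordered by their difference; the phenylalanine enzyme has 2 cytosolic subunits and EPRS1 stands in the rows for glutamate and proline. The serine and alanine pairs lie furthest apart, at 0.41 and 0.37, and the mitochondrial gene has the higher change in 5 pairs, by most for tryptophan (-0.18).

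HARS1 and HARS2 are neighbours on chromosome 5 that are transcribed away from each other, with RefSeq starts 85 bases apart. HARS1 changed by -0.18 and HARS2 by -0.04 (SE 0.035, limma adjusted p = 0.605), at 7.44, 7.42 and 7.47 in untreated and 7.42, 7.40 and 7.40 in treated cultures. The difference, -0.14 (SE 0.026, from the spread of this pair alone and not from limma), had all treated arrays below all untreated ones. The stretch between both starts is shown because it serves as the promoter region of 2 members with different values. It lies at chr5:140691371-140691454 (GRCh38.p14, plus strand, the direction of HARS2), with matches to the ETS core CCGGAAG on either strand in capitals.
HARS1 to HARS2: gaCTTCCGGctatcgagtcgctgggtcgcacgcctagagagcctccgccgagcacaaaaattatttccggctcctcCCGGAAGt

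Promoter windows from RefSeq (GRCh38.p14, 250 bases before to 50 bases after each start) were at hand for 31 of the 36 genes. LARS1, VARS1, YARS1, AARS2 and VARS2 had none and are only named. Both strands were searched for the core TGATGNAA of the amino acid response element. It was found in 7 of 16 cytosolic genes and in 1 of 14 mitochondrial genes, beside 3.7% of all 15374 tested genes with a window and 3.62% of all windows. It was also found in 10 of 27 ATF4 targets outside tRNA charging, and the window of XPOT does not hold these letters. The stretches around the matches are shown so that the 8 synthetase genes that hold the core can be compared letter by letter. Each is read in the direction in which the core runs, with up to 10 bases on either side and the core in capitals.
AARS1, chr16:70289676-70289703, plus strand: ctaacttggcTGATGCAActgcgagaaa
CARS1, chr11:3057408-3057435, plus strand: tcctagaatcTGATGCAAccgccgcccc
GARS1, chr7:30594835-30594862, minus strand: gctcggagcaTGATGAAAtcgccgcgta
IARS1, chr9:92293693-92293720, plus strand: cgcacggaggTGATGCAAcgcgctgaaa
MARS1, chr12:57488054-57488081, minus strand: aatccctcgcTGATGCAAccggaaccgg
NARS1, chr18:57621805-57621832, minus strand: ctacgctctcTGATGCAAcgccggaatc
TARS1, chr5:33440957-33440984, minus strand: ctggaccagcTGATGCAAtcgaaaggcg
YARS2, chr12:32756077-32756104, minus strand: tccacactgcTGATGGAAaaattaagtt

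In 6 of the 7 cytosolic genes the core had the same letters, TGATGCAA. It lay close to the annotated start in CARS1, IARS1, MARS1, NARS1, TARS1 and, for its second window, GARS1, and further upstream in AARS1 and YARS2. Genes with and without the core overlapped in their changes. The 7 cytosolic genes with it had a median change of 0.13, from -0.02 in TARS1 to 0.34 in AARS1, and the 9 without it had a median of 0.02, from -0.18 to 0.25, with SARS1, EPRS1 and RARS1 at its upper end. MARS1 and TARS1 hold the core and stood at -0.01 and -0.02. YARS2 holds it and stood at -0.14. A match is a description of letters in this window and not a measured binding site.

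The ETS core CCGGAAG was found in 9 of 16 cytosolic and 7 of 14 mitochondrial genes and in the window of XPOT, beside 15.9% of tested genes with a window and 10.3% of all windows. HARS1 and HARS2 share 184 bases of their windows and so share these matches. The core CGCATGCG of the site of NRF1, nuclear respiratory factor 1, which is known for genes of mitochondrial function, was found in MARS2 alone of the 30 synthetases with a window, beside 3.28% of tested genes with a window and 2.02% of all windows.

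**Figure D4:**
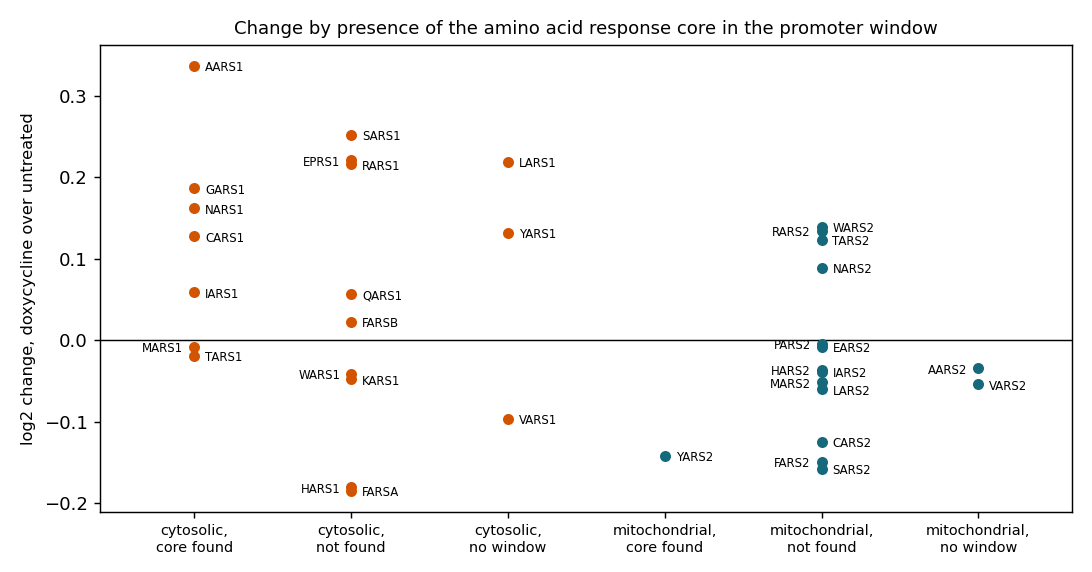
Log2 change (vertical axis) of each synthetase gene, by set and by whether its RefSeq promoter window holds the amino acid response core on either strand. The cytosolic genes with and without the core cover overlapping ranges, -0.02 to 0.34 and -0.18 to 0.25, and genes without a window are shown apart.

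Other genes of tRNA charging were read from a list of 15, of which 10 were measured and 5 are not analysed here. SEPSECS, which completes the synthesis of selenocysteine on its tRNA, rose, at 5.75, 5.75 and 5.70 against 5.89, 5.998 and 5.92 (0.20, SE 0.042, limma adjusted p = 0.0373). GATB, a subunit of the mitochondrial amidotransferase that makes glutaminyl-tRNA from the product of EARS2, fell, at 5.81, 5.79 and 5.72 against 5.58, 5.56 and 5.56 (-0.21, SE 0.039, limma adjusted p = 0.0285). QRSL1, another subunit of it, was lower on every treated array (-0.12, limma adjusted p = 0.0888). GATC, the third, stood at 0.04 (limma adjusted p = 0.539). AIMP1, a scaffold of the multisynthetase complex, stood at 0.06 (limma adjusted p = 0.53). GATB lost its call whichever array was left out, and SEPSECS in 5 of 6 such fits and with each array centred on its median.

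Genes that mature and export tRNAs were read from a further list. Of 24 measured of 26 listed, 4 fell and none rose, where 3.27% of all genes fell and 2.93% rose. A lower mean was found in 19, where 58.2% of all genes had one. The median was -0.11, beside -0.02 over all genes tested. The list includes NOL6 and LSG1, whose main known roles are in ribosome assembly and which did not pass the test. POP1, the largest protein of RNase P and RNase MRP, fell by 0.56 on the log2 scale, from 7.10, 7.17 and 7.13 to 6.61, 6.52 and 6.60 (SE 0.043, limma adjusted p = 0.00326). TRMT10C, a subunit of the mitochondrial RNase P and a tRNA methyltransferase, fell from 6.83, 6.80 and 6.83 to 6.53, 6.35 and 6.47 (-0.37, SE 0.052, limma adjusted p = 0.0132). POP7 (-0.22) of RNase P and ELAC1 (-0.18), a tRNA endonuclease, also fell, with limma adjusted p of 0.043 and 0.0448. The last pair lost their calls whichever array was left out, TRMT10C without untreated replicate 1 or 3 or treated replicate 3, and POP1 kept its call in all 6 such fits.

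ATF4 itself measured 9.32, 9.21 and 9.22 in untreated and 9.32, 9.36 and 9.38 in treated cultures (0.10, SE 0.044, limma adjusted p = 0.232), with overlap between groups. ATF4 is known to be controlled mainly at translation, which arrays do not measure. Of 33 of its targets outside tRNA charging, 8 rose and none fell, where 2.93% of all genes rose and 3.27% fell. The median was 0.06, equal to that of the cytosolic synthetases to 2 decimals. The other 25 targets did not pass the test. A lower mean in treated cultures was found in 8 of the 33, where 58.2% of all genes had one. The lowest change was that of SHMT2 (-0.15, limma adjusted p = 0.152). The largest rises were DDIT3 (0.46), a stress transcription factor, ASNS (0.40), which makes asparagine, CTH (0.39), which makes cysteine, and HERPUD1 (0.36), a protein of ER-associated degradation. AARS1, at 0.34, lay beside these. STC2 (0.28), a secreted glycoprotein, and PSAT1 (0.21), an enzyme of serine synthesis, lay close to SARS1 (0.25) and EPRS1 (0.22). Of these 6 genes, ASNS alone kept its call whichever array was left out. DDIT3 and HERPUD1 lost theirs without untreated replicate 3 or treated replicate 3, PSAT1 without any 1 of the untreated arrays or treated replicate 3, and CTH and STC2 in 5 of the 6 fits, CTH holding without treated replicate 1 and STC2 without treated replicate 2. The charging enzymes of the amino acids that ASNS, CTH and PSAT1 supply were NARS1 (0.16, not past the test), CARS1 (0.13, not past the test) and SARS1 (0.25, rose). These supply genes were taken from those that rose, and whether supply and charging genes changed together was not tested. Of the other listed enzymes of serine synthesis, PHGDH stood at 0.05 (limma adjusted p = 0.643) and PSPH at -0.05 (limma adjusted p = 0.506).

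On the mitochondrial side, none of 13 translation factors measured of 15 listed passed limma's test, with 2 higher and 5 lower at an unadjusted p under 0.05 and a median of 0.0059. MTIF3, an initiation factor, stood at 0.18 (limma adjusted p = 0.0788) and TACO1, a translational activator, at -0.18 (limma adjusted p = 0.0564). Of 74 mitochondrial ribosomal protein genes, taken by symbol after the values were known, 3 fell and 1 rose, beside 3.27% and 2.93% of all genes. A lower mean was found in 59, beside 58.2% of all genes, and the median was -0.09. At an unadjusted p under 0.05 there were 28 lower and 3 higher, beside 12.7% and 9.85% of all genes. In 35 every treated array lay below every untreated one, beside 16.7% of all genes. The falls were MRPS11 (-0.37), MRPL12 (-0.29) and MRPS7 (-0.26) and the rise was MRPL2 (0.24), named after their values were seen. MRPL58, which rescues stalled mitochondrial ribosomes, is in both lists. The mitochondrial synthetases, with a median of -0.04, lay between the translation factors and the ribosomal proteins, and these medians were not tested against each other.

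**Figure D5:**
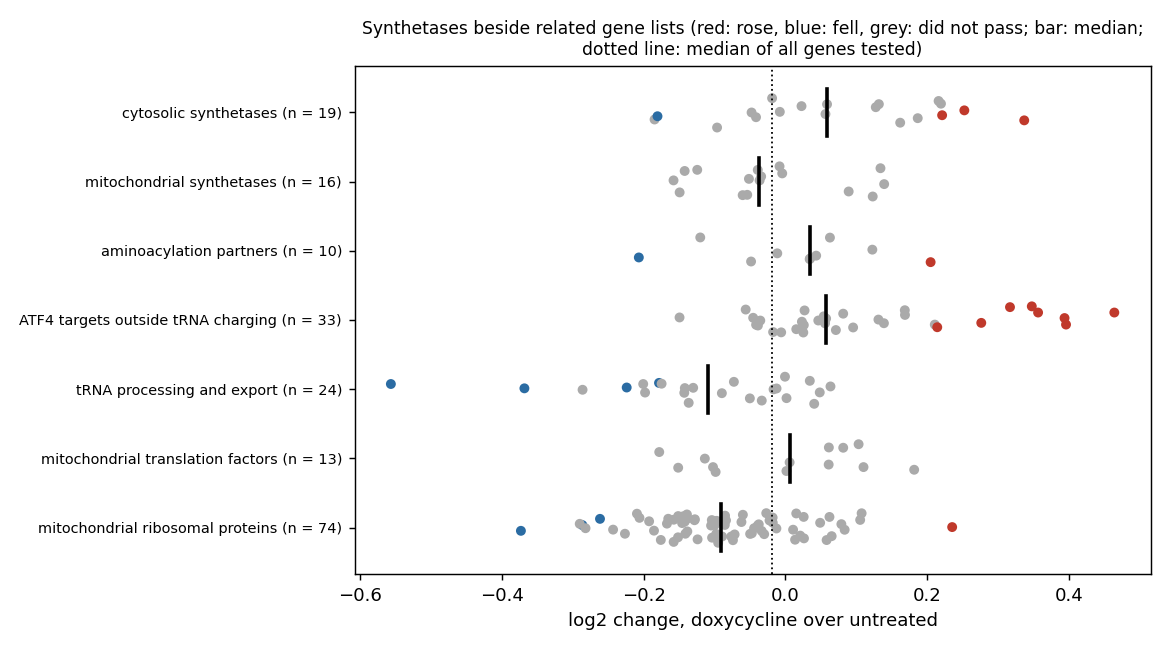
Log2 change of every measured gene (points) in the synthetase sets and 5 related lists, with the median of each list as a bar and the median of all genes tested, -0.02, as a dotted line. Called rises stand in the cytosolic synthetases, the charging partners, the ATF4 targets and 1 mitochondrial ribosomal protein gene, and the tRNA processing genes hold 4 called falls.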

How the data were processed

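The deposited table holds log2 values for each probe set. Per the submitters' processing notes they come from RMA, a method that subtracts background, equalises array distributions and summarises probes. The sources used here give no software version, annotation or genome build. The deposited log2 values ran from 0.485 to 14.2, with array medians of 4.12 to 4.17. The number of arrays limits the precision, and the labels call the samples of a group separate cultures without saying whether they were grown on separate occasions, so p-values measure the spread between these cultures.

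Of 70523 probe sets, 23781 carried 1 symbol in the platform's annotation, 1543 several and 45199 none here. Symbols were updated through RefSeq (GRCh38.p14), and the brightest probe set was kept for 528 genes with more than 1. The 22411 genes were fitted together with limma 3.58.1 in R 4.3.3 (lmFit, eBayes, treatment as the only term) with Benjamini-Hochberg adjustment over all of them. The fit was first run on simulated arrays with independent noise and planted changes larger in size than that of any member except AARS1. That run does not show how often changes as small as those of the other members are found. Members and lists were chosen with earlier results of these data known. Named genes are all members, SLBP, ATF4 and, from each related list, up to 6 genes past the threshold with the smallest adjusted p. Other genes of these lists that are named were chosen after their values were seen. Permutation tests used SciPy 1.17.1. Alternatives were median centring, repeated quantile normalization, dim genes left out, trend and robust settings, array weights, mean of probe sets, a replicate block, and leaving out each array in turn.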

Additional observations from a re-analysis of the deposited data

How the results depend on the processing

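Of the cytosolic synthetases, 3 rose and 1 fell. The number that rose was 9 with dim genes left out, 8 with array weights, 7 with trend and robust settings and 0 to 3 over the fits that left out an array, and the number that fell was 0 whenever an array was dropped. Over the whole table, against 656 genes called higher and 732 lower, dropping an array gave 63 to 561 and 69 to 537, array weights gave 1511 and 1714, trend and robust settings gave 948 and 1096, and the table without dim genes gave 1156 and 1413. Of the mitochondrial synthetases, 2 were called higher and 1 lower with array weights, 1 higher with dim genes left out and 1 higher with trend and robust settings. The labels do not say whether the replicate numbers pair the cultures. Across genes, same-numbered arrays deviated together with r of 0.03, -0.00056 and -0.016, and different-numbered arrays with r of -0.10 to 0.10. These values cannot settle whether same-numbered cultures shared an occasion, since the noise of single genes also lowers r. With the replicate number as a block 0 cytosolic synthetases rose and 0 fell, and 157 genes rose and 174 fell over the whole table. The median change of the cytosolic genes stayed between 0.06 and 0.08 and that of the mitochondrial genes between -0.06 and -0.02 over all alternatives. Signs turned only in genes near 0 and in 1 pair. MARS1 gave 0.0155 and TARS1 0.0051 with repeated quantile normalization, EARS2 0.011 with it and 0.0063 with array weights, and PARS2 0.0142 with it, 0.079 with array weights and 0.00077 with median centring. Leaving out an array moved MARS1 from -0.0212 to 0.0176, TARS1 from -0.0531 to 0.0208, EARS2 from -0.0400 to 0.0208, PARS2 from -0.0613 to 0.0783 and the difference of FARSA and FARS2 from -0.0943 to 0.0193, the last without untreated replicate 1.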
